A study of Mus musculus with 9 samples.

Results

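The distal H3K27ac peaks found only in forelimb buds of Shh-/-;Gli3-/- embryos numbered 12817, out of 34641 peaks in the list of that genotype and 91822 peaks in all 3 lists of the series. Members were chosen by the measured peak calls themselves: a member overlapped no wild type (WT) peak and no Shh-/- peak, even by 1 bp, lay on an autosome, and did not touch the interval reaching 2 kb before and 1 kb past any protein-coding transcript start. Presence in one list and absence from the others is therefore no result about them. They made up 63.7% of the 20126 distal autosomal peaks of the Shh-/-;Gli3-/- list, and 58.6% of the 15826 with an FDR (the authors' false discovery rate) below 0.05. Without an FDR limit, the corresponding shares were 53.3% for the Shh-/- list and 42.7% for the WT list. Most distal peaks of either mutant list and a large minority of WT peaks thus had no partner under this rule. The lists stop at different limits, with maximum FDRs of 0.3499 (WT), 0.1858 (Shh-/-) and 0.1091 (Shh-/-;Gli3-/-). Their minimum log2 folds are 2.05, 2.206 and 1.964, and they hold 25096, 32085 and 34641 peaks. The part of these limits in the shares and counts compared across lists was not tested.

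H3K27ac was measured by MicroChIP-seq, chromatin immunoprecipitation followed by sequencing for small numbers of cells, in E10.5 forelimb buds (33 to 34 somites), with 1 pair of limb buds from 1 embryo per immunoprecipitation. WT, Shh-/- and Shh-/-;Gli3-/- embryos, of a background that the labels call mixed and the study's methods Swiss Webster, were each represented by 2 H3K27ac samples and 1 input sample, 9 samples in all. The mutants carried null alleles in all cells (the Shh tm1amc allele in both mutants, and in addition the Gli3 Xt-J allele in Shh-/-;Gli3-/-), and a whole limb bud mixes mesenchyme, ectoderm, vessels, blood and migrating muscle and nerve precursors. Each genotype has a single peak list and no value per replicate, so the variation among embryos is unknown and nothing was tested. The intervals given are Wilson 95% intervals and cover counting over peaks only.

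SHH is secreted by posterior limb cells and keeps GLI3 from being cut into a transcriptional repressor. Without SHH the repressor persists in posterior cells and the limb loses its digits, whereas removal of GLI3 as well is known to restore outgrowth with many digits of little identity. H3K27ac marks active promoters and enhancers, and distal peaks of it are commonly read as candidate enhancers. Each null mutation acts throughout development, and fewer cells with a mark cannot be told apart from less of the mark per cell in a whole limb bud.

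All 3 lists held promoter peaks of Tbx5, which specifies the forelimb, and of the limb mesenchyme regulators Prrx1, Lmx1b and Shox2. No list held a promoter peak of the hindlimb gene Pitx1, the neural gene Tubb3 or the muscle gene Myod1. Neither targeted gene can check the genotypes here, since Shh had 0 promoter peaks in every list, WT included, and Gli3 had 2 in the WT list and 1 in each mutant list.

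The sequences shown here come from the plus strand of GRCm38 (mm10). The first 2 were chosen because they hold the GLI motif, GACCACCCA on either strand with 1 other letter allowed outside CCACCC, and its match is in capitals. The Zfhx3 region is chr8:108726750-108727049, inside an intron of Zfhx3. The Tbc1d22a region is chr15:86429600-86429899, in an intron of Tbc1d22a, and overlaps one of 5 regions that the study had picked from genome-wide GLI3 binding for H3K27ac assays by qPCR.
Zfhx3: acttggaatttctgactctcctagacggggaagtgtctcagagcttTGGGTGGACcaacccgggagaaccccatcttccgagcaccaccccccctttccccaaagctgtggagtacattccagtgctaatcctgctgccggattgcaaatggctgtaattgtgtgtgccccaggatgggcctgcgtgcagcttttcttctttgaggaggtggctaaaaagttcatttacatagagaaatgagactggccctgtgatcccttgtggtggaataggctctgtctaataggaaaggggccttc
Tbc1d22a: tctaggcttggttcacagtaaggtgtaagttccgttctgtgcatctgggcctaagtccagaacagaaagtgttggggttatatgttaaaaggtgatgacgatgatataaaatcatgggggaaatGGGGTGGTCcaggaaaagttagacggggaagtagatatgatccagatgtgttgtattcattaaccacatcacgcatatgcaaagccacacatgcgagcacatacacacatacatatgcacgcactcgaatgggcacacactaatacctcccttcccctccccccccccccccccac

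The other 3 sequences are the middles of the GC-poor members of highest fold that lay more than 1 kb from any WT or Shh-/- peak, and none holds a GLI match. They lie at chr7:72234025-72234324 in an intron of Mctp2, at chr3:67068125-67068424 in an intron of Rsrc1, and at chr2:141570875-141571174 in an intron of Macrod2, 899.6 kb from its nearest protein-coding start, that of Flrt3. Their GC contents were 36.7%, 40.7% and 33.3%, against 52.0% and 48.0% for the 2 sequences with the motif. These 3 were chosen for low GC content, so this difference is no result.
Mctp2: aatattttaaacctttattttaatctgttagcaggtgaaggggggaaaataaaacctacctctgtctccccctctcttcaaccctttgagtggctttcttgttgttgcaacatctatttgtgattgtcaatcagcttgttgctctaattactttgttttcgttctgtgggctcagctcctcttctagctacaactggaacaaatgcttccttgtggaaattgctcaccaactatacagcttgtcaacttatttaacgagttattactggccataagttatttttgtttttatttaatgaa
Rsrc1: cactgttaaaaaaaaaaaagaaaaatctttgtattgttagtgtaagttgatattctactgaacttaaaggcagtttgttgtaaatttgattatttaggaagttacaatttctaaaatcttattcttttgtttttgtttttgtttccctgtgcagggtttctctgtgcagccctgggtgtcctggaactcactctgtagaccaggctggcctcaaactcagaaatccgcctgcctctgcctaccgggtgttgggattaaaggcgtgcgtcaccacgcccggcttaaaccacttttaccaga
Flrt3: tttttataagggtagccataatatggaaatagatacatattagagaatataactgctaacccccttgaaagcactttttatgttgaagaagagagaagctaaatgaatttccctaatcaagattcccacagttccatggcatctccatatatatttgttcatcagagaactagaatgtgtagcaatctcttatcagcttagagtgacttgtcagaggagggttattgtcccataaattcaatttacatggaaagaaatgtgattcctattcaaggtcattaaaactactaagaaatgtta

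Members were mostly narrow peaks of low fold. Their median width was 150 bp, and 26.3% had a width of 100 bp, while 6.07% (778 peaks) reached 500 bp. Distal peaks only in Shh-/- and only in WT had the same median width. Of these, 39.4% and 45.3% had a width of 100 bp, and 0.879% and 0.102% reached 500 bp. The median log2 fold of members over the input was 2.37, with a range from 1.97 to 4.69, and 1123 members (8.76%) reached a log2 fold of 3. Distal Shh-/-;Gli3-/- peaks shared with all lists were wider, with a median of 650 bp, and had a median log2 fold of 3.32 over the same input. A wider peak has more sequence that can overlap another list, and the part of width in this difference was not tested. The authors' FDR was below 0.05 for 72.3% of members and for 96.2% of the peaks shared with all lists. When the distal peaks of the Shh-/-;Gli3-/- list were ordered by fold and cut into deciles, 83.7% of the lowest decile were members and 11.8% of the highest. Low fold thus went with being a member.

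**Figure D1:**
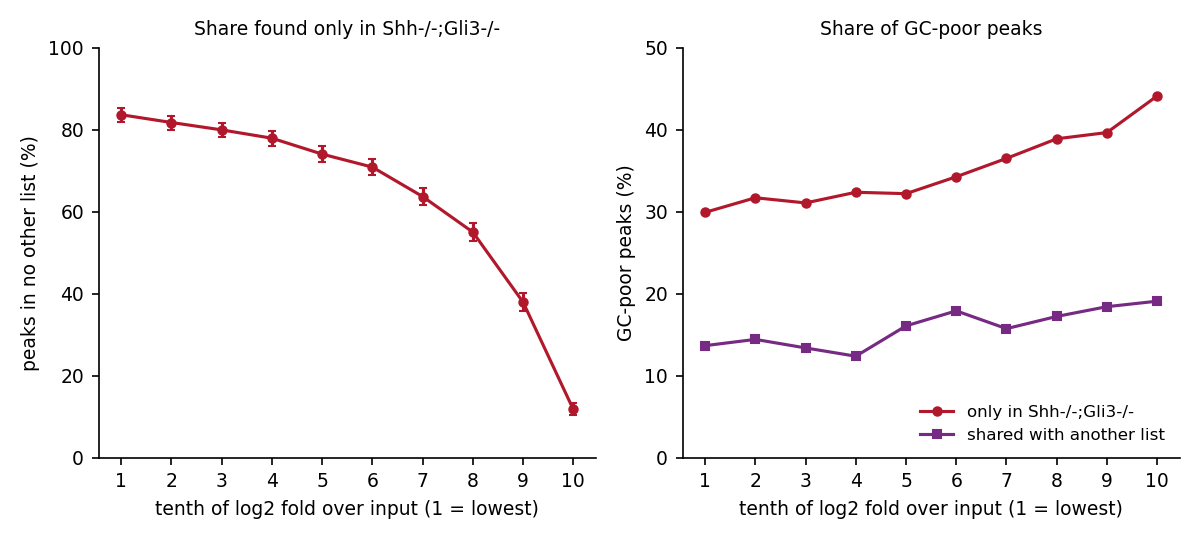
Left, the share of distal Shh-/-;Gli3-/- peaks that overlap no peak of another list, by decile of log2 fold over input, with Wilson 95% intervals. Right, the share of GC-poor peaks in the same deciles for peaks only in Shh-/-;Gli3-/- and for peaks shared with another list. The left curve falls from 83.7% to 11.8%, while the GC-poor share of the members rises from 29.9% to 44.1% and stays above that of shared peaks in every decile.

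On the inner side of the overlap threshold were 527 members less than 50 bp from a peak of another list, with a median log2 fold of 2.35, a median width of 200 bp and a median GC content of 47.0%. Just on the other side, 666 distal Shh-/-;Gli3-/- peaks were left out for an overlap of at most 50 bp, and their medians were 2.36, 200 bp and 48.2%.

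Members often lay beside peaks of the other genotypes. Of the 12817 members, 4814 (37.6%, interval 36.7 to 38.4%) lay within 1 kb of a WT or Shh-/- peak. Of windows placed every 10 kb along the distal autosomal sequence and outside those peaks, 1.51% lay as close. Distal peaks only in Shh-/- (36.2%) and only in WT (32.6%) lay within 1 kb of the remaining lists about as often. Among the 4814 members, 1843 were near a Shh-/- peak only, 1180 near a WT peak only and 1791 near both. The Shh-/-;Gli3-/- list itself had a shared peak within 1 kb of 3204 members. At the far end, 41.6% of members lay more than 10 kb from either other list, and 1405 (10.96%) lay 100 kb or more away.

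**Figure D2:**
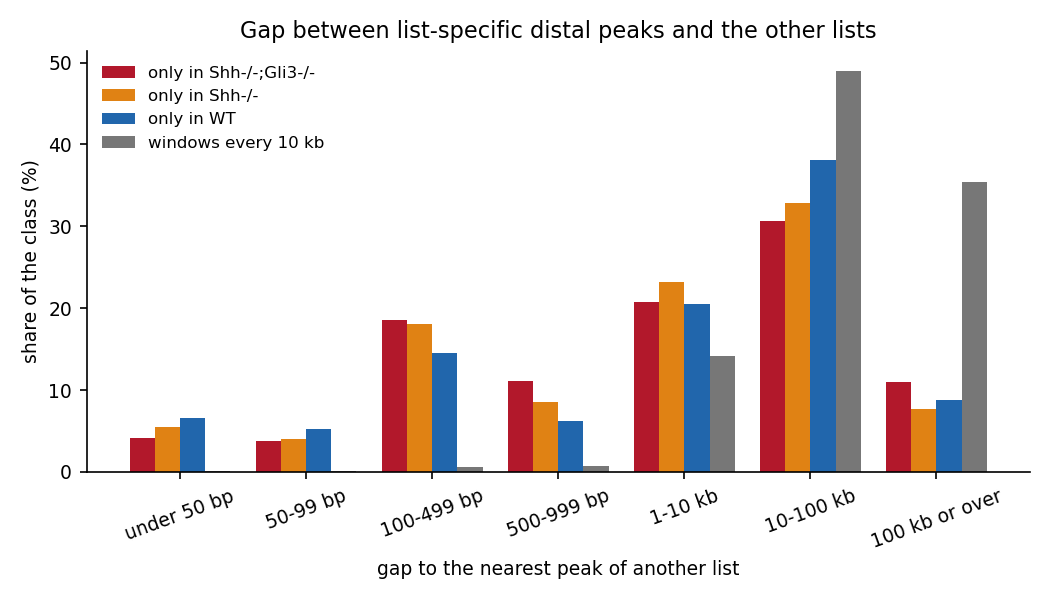
Share of each class of distal peaks, and of windows placed every 10 kb, by the gap to the nearest peak of another list. The members gather at gaps under 1 kb, where 37.6% of them lie against 1.51% of the windows, and 10.96% of them lie 100 kb or more away against 35.4% of the windows.

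The members also stood close to each other. Another member lay within 1 kb of 42.2% of them and within 10 kb of 60.3% (interval 59.4 to 61.1%), so members are not independent of each other. The share within 10 kb was 21.8% among members with a log2 fold of at least 3 and 25.3% among those of at least 500 bp, sets with fewer peaks. Chaining members over gaps of up to 10 kb gave 7788 groups, of which 5092 were single peaks and 269 held 5 or more. For the 7309 shared distal Shh-/-;Gli3-/- peaks the share with another of their kind within 10 kb was 63.8%. This share was 37.7% for the 8642 peaks only in Shh-/- and 16.8% for the 4880 peaks only in WT. Each of these classes had fewer peaks than the members, and the part of class size was not tested.

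The largest chain held 18 members over 29.3 kb at chr18:84066550-84095849, across Tshz1, a zinc finger homeobox gene, and Zadh2, with log2 folds from 2.02 to 3.70. There, 7 of the 18 lay within 1 kb of another list, and the stretch held 8 WT and 10 Shh-/- peaks. The next held 16 members at chr16:55133450-55154299, an intergenic stretch 139 kb from the start of Zpld1, with GC contents of at most 44.2%. In it 10 members lay within 1 kb of another list, beside 7 WT and 8 Shh-/- peaks. A chain of 15 members lay inside the Hoxb cluster at chr11:96305650-96326949, over exons of Hoxb3, Hoxb4 and Hoxb5, which pattern the body axis. There, 12 of the 15 lay within 1 kb of another list, and the same stretch held 11 WT and 13 Shh-/- peaks. A chain of 14 members lay at chr14:117330800-117346999 in an intron of Gpc6, a gene for a heparan sulfate proteoglycan, where each other list had 1 peak. Of 3 chains tied at 13 members, one lay at chr18:54962750-54982049 in an intron of Zfp608, with 7 WT and 6 Shh-/- peaks among them. The others lay at chr2:64072800-64096699 in an intron of Fign, with 2 WT and 0 Shh-/- peaks, and at chr9:65155850-65190349 over Igdcc3, with 14 WT and 11 Shh-/- peaks. These chains thus differed in how many WT and Shh-/- peaks shared their stretch.

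Among single members, the highest log2 fold was 4.69, at chr18:83634550-83635599, 451 kb from the start of Tshz1. This 1050 bp peak lay 211500 bp from the nearest Shh-/- peak and further still from WT. Next came chr6:61216800-61218349 in an intron of Ccser1, with 4.67 and a width of 1550 bp. At chr6:4874400-4875099, 28.2 kb from the start of Ppp1r9a, the log2 fold was 4.61, with a gap of 250 bp to a Shh-/- peak. Another intergenic member, chr3:66421650-66423899, 126 kb from the start of Veph1, had 4.56 over a width of 2250 bp. Of the other 6 members among the 10 highest, 2 adjoined each other in an intron of Map2k5 near Skor1, at chr9:63240600-63242099 and chr9:63242150-63242599, with log2 folds of 4.46 and 4.31. Others lay near Ssh2 (4.56), Dtwd2 (4.42), Mctp2 (4.26) and Dph6 (4.26).

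Several of the widest members lay in large intergenic gaps. The widest, 3350 bp at chr11:111818450-111821799 with a log2 fold of 4.14, lay in the intergenic gap of 1705 kb between Kcnj2 and Sox9, the main regulator of cartilage formation, and 6300 bp from a Shh-/- peak. The second, 2650 bp at chr12:36791100-36793749, lay 316 kb from the start of Meox2, a homeobox gene of limb muscle, with a WT peak 900 bp away. In the gap of 727 kb upstream of Hand2, a posterior limb regulator that acts above Shh, were 2 of the 10 widest members, chr8:56831850-56833549 and chr8:56962100-56963699. The first, for which the start of Fbxo8 was nearer, was 81900 bp from the nearest Shh-/- peak and the second 550 bp from a WT peak. One more lay at chr10:99354050-99355399, 91.5 kb from the start of Dusp6, which encodes a phosphatase induced by FGF signaling, with peaks of both other lists within 1 kb.

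GC content was lower in members than in the other peak classes by median, but the distributions overlapped. The quartiles were 40.2% and 49.4% for members and 44.0% and 54.0% for the shared distal Shh-/-;Gli3-/- peaks. The median in 500 bp around the peak middle was 44.8% for members, 49.0% for the shared distal Shh-/-;Gli3-/- peaks, 48.2% for peaks only in Shh-/- and 49.8% for peaks only in WT, and 41.6% for the windows along the genome. GC-poor, meaning under the autosomal mean of 41.93%, were 4310 members (33.6%, interval 32.8 to 34.5%). The share was 16.9% in the shared peaks, 15.3% in those only in Shh-/-, 8.504% in those only in WT and 51.7% in the windows. Members therefore stood between the other peak classes and the genome. In the bin with GC content from 30 to 35%, 82.3% of distal Shh-/-;Gli3-/- peaks were members, against 22.3% at 60% or over.

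**Figure D3:**
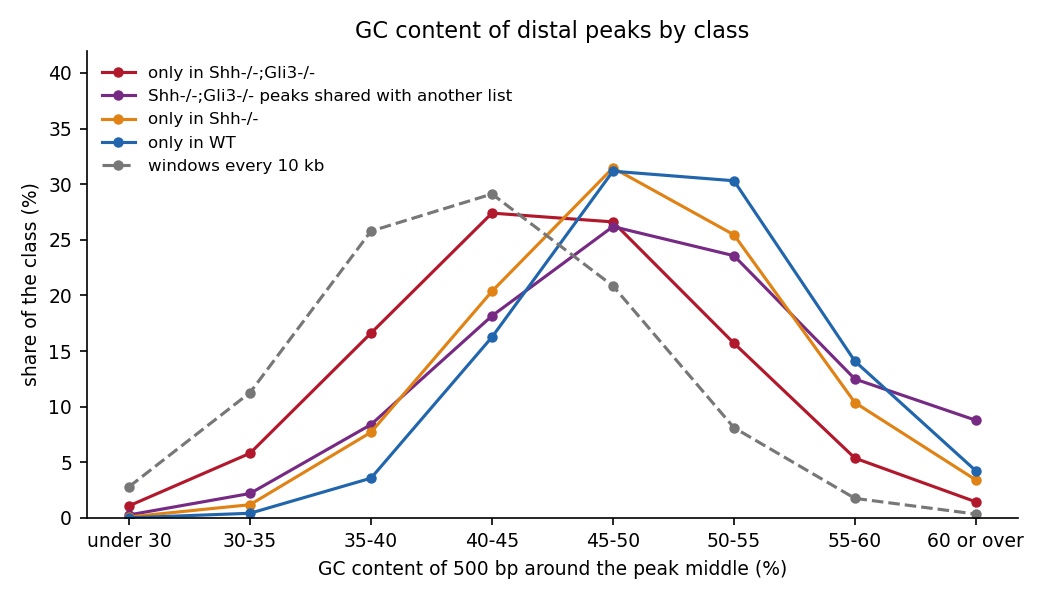
Distribution of GC content in 500 bp around the middle of distal peaks in 4 classes and of windows placed every 10 kb along the autosomes, as the share of each class in each GC bin. The members, with a median of 44.8%, lie to the left of the other peak classes and to the right of the genome windows, whose median is 41.6%.

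GC-poor members were more frequent at high fold. Their share rose from 29.9% of the members in the lowest fold decile to 44.1% in the highest, and stood at 46.7% among the 778 members of 500 bp or more. Shared peaks went from 13.7% to 19.1% over the same deciles. The part of library GC content in this difference was not tested. Few members, 5.05%, lay for 50% or more in masked repeats, against 24.6% of the windows.

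GC-poor members also differed in place. They lay a median of 116 kb from the nearest protein-coding start, against 51.4 kb for the other members, and 35.4% of them lay in intergenic gaps of over 500 kb, against 17.0%. The windows showed a similar slope, with 39.8% of GC-poor and 19.7% of other windows in such gaps. Nevertheless 33.2% of the GC-poor members lay within 1 kb of a WT or Shh-/- peak, where 0.864% of GC-poor windows outside those peaks did, and 6.75% of them were nearest to a developmental regulator, against 3.25% of GC-poor windows.  Setting the members within 1 kb of another list aside left 2881 GC-poor members, of which 5.69% were nearest to such a regulator, and 5122 others, of which 7.497% were.

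Developmental regulators were taken as 434 genes of 21 families of transcription factors and signaling proteins. They were the nearest protein-coding gene of 965 members (7.53%, interval 7.085 to 7.999%) and of 3.75% of the windows. The shared distal Shh-/-;Gli3-/- peaks had 7.94%, those only in Shh-/- 6.55% and those only in WT 4.94%. By nearest gene the members were thus about as frequent as the shared peaks of their own list, but by distance they were less frequent. A regulator start lay within 100 kb of 5.937% of members (interval 5.54 to 6.36%) and of 8.03% of shared peaks (interval 7.43 to 8.68%), and within 500 kb of 19.3% and 23.9%. For peaks only in Shh-/- these shares were 6.69% and 22.5%, for those only in WT 5.25% and 21.1%, and for the windows 3.04% and 13.3%. Within 500 kb members thus had the lowest share of these peak classes. Of the regulators on autosomes, 177 of 420 had at least 1 member nearest to them.

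Zinc finger and paired-type homeobox genes led the families, with 197 members, among them 40 nearest to Zfhx3, 22 to Tshz1 and 20 to Tshz2. The bHLH family followed with 140, led by Tcf4 with 27 and Hand2 with 24. SOX genes had 89 (25 of them at Sox9, 23 at Sox6 and 15 at Sox4) and forkhead genes 77, with 18 at Foxc1. Members made up 69.6% of distal Shh-/-;Gli3-/- peaks nearest to a paired-type or zinc finger homeobox gene, 72.6% for forkhead genes and 40.6% for genes of the HH pathway itself, beside 63.7% for all. For bHLH and SOX genes the shares were 63.1% and 62.7%, near that of all. By count the smallest families were GATA with 1 member, its single distal peak, and NKX with 2.

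Of the genes with most members nearest to them, Zfp608 had 62, at a median distance of 204 kb, which is 49.2 per Mb of the sequence nearest to it, against 5.53 per Mb over the distal genome. Its surroundings were also rich in other peaks, with 31 shared distal Shh-/-;Gli3-/- peaks, 32 WT and 51 Shh-/- distal peaks. Flrt2, a cell adhesion gene, had 46 members and 6 shared peaks. These members lay in very GC-poor sequence (median 35.2%), at a median distance of 1043 kb. Kcnj2, a potassium channel gene next to the gap that ends at Sox9, had 39 members and 2 shared peaks, beside 2 WT and 9 Shh-/- distal peaks. Of these members, 35 lay more than 1 kb from any WT or Shh-/- peak. Gpc6 had 37 members and 2 shared peaks, beside 3 WT and 3 Shh-/- peaks. Genes in this ranking were chosen for many members, which by rule overlap no WT or Shh-/- peak. An excess of members over those peaks is therefore no result. The WT, Shh-/- and Shh-/-;Gli3-/- lists held 11438, 16221 and 20126 distal autosomal peaks. Mecom, a zinc finger regulator, had 39 members and 30 shared peaks, beside 75 Shh-/- peaks. Zfhx3 had 40 members and 13 shared peaks, beside 51 Shh-/- peaks. Beside the 63.7% of all distal Shh-/-;Gli3-/- peaks that were members, the share at Zfp608 was near and that at Mecom lower. The other 4 of the 10 genes were Adgrl2 (43 members, 18 shared peaks) and the nuclear receptor gene Nr2f2 (39 and 8). With them were Dach1 (37 and 12), which encodes a nuclear factor of limb and eye development, and the axon guidance receptor gene Robo2 (33 and 8).

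Counted in windows of 1 Mb, members were most numerous beside the Hoxd cluster. There the window chr2:75000000-75999999 held 50 members among 79 distal Shh-/-;Gli3-/- peaks, beside 37 WT and 34 Shh-/- distal peaks. Members were 63.7% of all distal peaks of their list. The share in this window is near that, so it is not a result about the members. On the opposite side of the cluster chr2:73000000-73999999 held 36 members among 42 such peaks, beside 11 WT and 14 Shh-/- peaks. The window chr11:111000000-111999999 in the gap between Kcnj2 and Sox9 held 43 members among 47, beside 3 WT and 12 Shh-/- peaks. A window with Meis2, a regulator of the proximal limb, chr2:115000000-115999999, held 43 members among 55, beside 13 WT and 21 Shh-/- peaks. Members occurred in 1995 windows with a median of 4, and the 91 windows with 20 or more held 2429 of them.

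Genes raised by HH signaling in the limb bud or acting in its feedback were followed as a list of 25. Within 100 kb of their starts lay 109 members, near 21 of the 25 genes, and 64 of the 109 were more than 1 kb from any WT or Shh-/- peak. Members were 66.5% (interval 58.9 to 73.2%) of the distal Shh-/-;Gli3-/- peaks there, which is close to the 63.7% of all distal peaks in that list, so this share is not a result about the members. At the same genes, 23.4% of WT distal peaks near them were found in WT alone, below the 42.7% of that list, and 27.8% of Shh-/- peaks were found in Shh-/- alone, below its 53.3%.

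Hand2 had most members of the list, 24 as nearest gene. Within 100 kb of its start the WT list had 6 distal peaks, the Shh-/- list 1 and the Shh-/-;Gli3-/- list 18, of which 14 were members. Within 500 kb the counts were 9, 2 and 40, with 33 members. Over all autosomes these lists held 11438, 16221 and 20126 distal peaks, and 63.7% of the last were members. Among the 24 members nearest to Hand2 the highest fold, 3.42, was at chr8:56958300-56958649, 362 kb upstream, while the wide member nearer to Fbxo8 described above had 3.51. Hand2 was named here for its many members, which by rule overlap no WT or Shh-/- peak. The higher count of distal peaks in the Shh-/-;Gli3-/- list around it is therefore no result about the members. The median GC content of its 24 members was 39.2%.

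Mycn, a regulator of proliferation, had 20 members, led by chr12:13047250-13047749 with a log2 fold of 3.83. Sall3, a zinc finger gene, had 17, led by chr18:80984100-80984499 in its own intron with 3.31. Tbx3, a T-box gene of the posterior and anterior margins, had 13 distal Shh-/-;Gli3-/- peaks within 100 kb, 11 of them members, beside 4 WT and 0 Shh-/- peaks. For Ptch1, the HH receptor and a direct target, the same counts were 11 peaks with 7 members, beside 8 WT and 3 Shh-/- peaks. Not all listed genes had few Shh-/- peaks. Dusp6, with 12 members as nearest gene like Tbx3, had 23 distal Shh-/-;Gli3-/- peaks within 100 kb, 9 of them members, beside 18 WT and 24 Shh-/- peaks. Around Tbx2, a T-box gene related to Tbx3, these counts were 13, 7, 8 and 10, and around Bmp2, a BMP ligand gene, they were 1, 1, 2 and 4. Hhip, an antagonist of the pathway, had 4 members within 100 kb and no distal peak in either other list. Gli1, a general target of the pathway, had 1 member, beside 4 WT and 0 Shh-/- peaks. The member counts of these genes stand beside a share of 63.7% among all distal peaks of the Shh-/-;Gli3-/- list.

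Grem1, a BMP antagonist of the posterior limb mesenchyme, had 7 members as nearest gene. Within 500 kb it had 18 members among 23 distal Shh-/-;Gli3-/- peaks, beside 11 WT and 5 Shh-/- distal peaks. One of these members, chr2:113641350-113641549, lay 117 kb from the start of Grem1 in an intron of Fmn1 and overlapped one of the GLI3-bound regions that the study picked for qPCR. The study classed these regions as acetylated in WT limb buds in dependence on HH signaling, with a standard protocol on pooled limb buds, so the missing WT peaks here do not show that WT lacked the mark. Its log2 fold was 2.38 at an FDR of 0.0158, and WT and Shh-/- peaks were 45500 and 59000 bp away. Of the 5 such regions, 4 overlapped at least 1 member. Those members were 3 small peaks at chr13:63951450-63952899, one at chr5:134072950-134073449 and one at chr15:86429650-86429849, the last of which lay 650 bp from a WT peak. The log2 folds of the 6 members at these regions were between 2.03 and 2.76, beside quartiles of 2.18 and 2.64 over all members.

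The 5' genes of the Hoxa and Hoxd clusters pattern the distal limb. Within 100 kb of the 12 genes (Hoxa9 to Hoxa13, Hoxd8 to Hoxd13, Evx1 and Evx2, of which Hoxd10 to Hoxd13 were also counted as HH targets) lay 44 distal Shh-/-;Gli3-/- peaks, 44 WT and 30 Shh-/- peaks. Of these, 29 (65.9%) were found only in Shh-/-;Gli3-/-, 3 (6.82%) only in WT and 2 (6.67%) only in Shh-/-, beside 63.7%, 42.7% and 53.3% of all distal peaks of these lists. The share of members is thus near that of the whole list and is not a result about them. Most of the 29 members, 21, lay within 1 kb of a WT or Shh-/- peak. Hoxa10 and Hoxa11 had 2 members each as nearest gene and Evx2 had 1, at chr2:74619850-74619949, 40650 bp from the other lists.

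Regulators of the anterior limb had fewer members than the list as a whole. Members were 39 of 97 distal Shh-/-;Gli3-/- peaks within 100 kb of these genes (40.2%, interval 31.0 to 50.2%), beside 63.7% of all. In the Shh-/- list, 75 of 151 were found in no other list (49.7%, beside 53.3%). The WT share was also low, with 13 of 84 in no other list (15.5%, interval 9.27 to 24.7%, beside 42.7%). Gli2, a further GLI protein, had 13 members as nearest gene, led by chr1:119001700-119001849 with a log2 fold of 3.04. Pkdcc, a kinase gene of early limb skeleton, had 10 and Gli3 itself had 8, led by chr13:15552300-15552599. Alx4, an anterior homeobox gene, had 2 members and 31 Shh-/- distal peaks within 100 kb, beside 3 WT peaks.

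**Figure D4:**
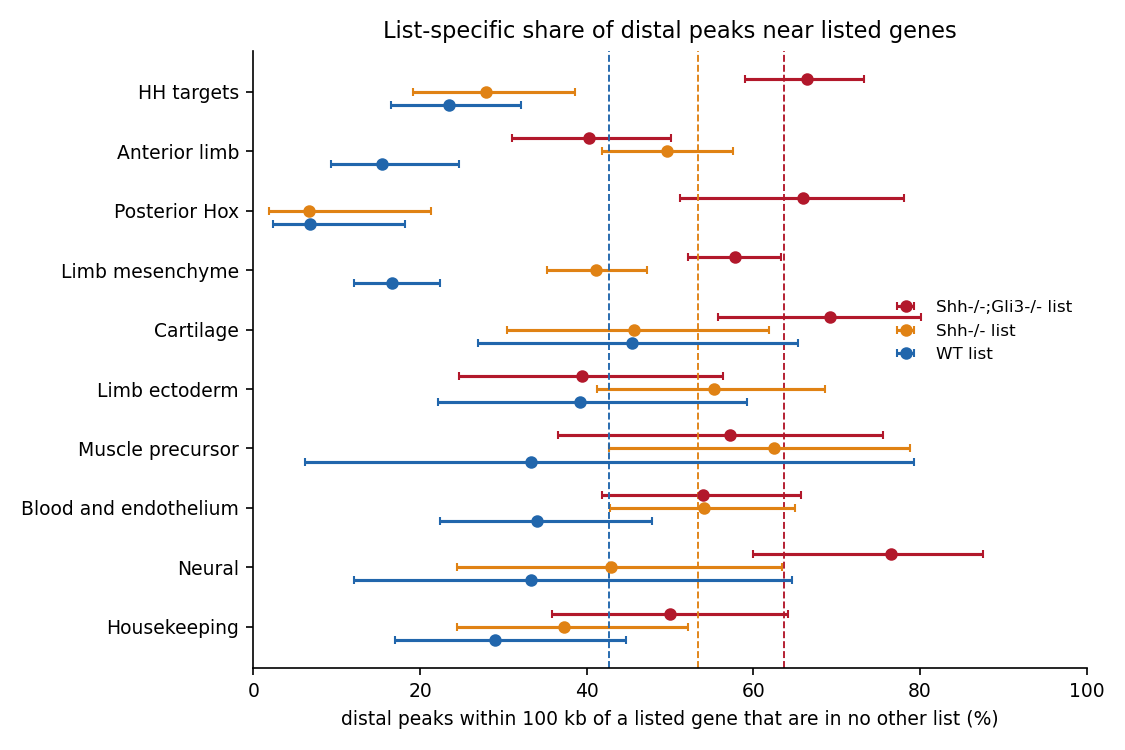
For each gene list, the share of distal peaks within 100 kb of a listed gene that are in no other list, for the Shh-/-;Gli3-/-, Shh-/- and WT lists, with Wilson 95% intervals. Dashed lines give the share over all distal peaks of each list (63.7%, 53.3% and 42.7%). At HH targets and posterior Hox genes the Shh-/-;Gli3-/- points lie near their line, while the Shh-/- and WT points lie to the left of theirs. The Shh-/- and WT points also lie to the left of their lines for anterior limb, limb mesenchyme, neural and housekeeping genes.

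Regulators of limb mesenchyme had 223 members as nearest gene, led by Zfhx3 (40), Meis1 (31), which specifies the proximal limb, and Tcf4 (27). Members were 57.8% (interval 52.1 to 63.3%) of the distal Shh-/-;Gli3-/- peaks within 100 kb of this list, beside 63.7% of all. Of the Shh-/- and WT distal peaks there, 41.1% and 16.6% were found in no other list, beside 53.3% and 42.7% of all. The leading members were chr8:108726600-108727199 in an intron of Zfhx3, shown above, with a log2 fold of 3.24 and a gap of 11000 bp, chr11:18490150-18490449, 528 kb from Meis1, with 3.15, and chr18:69285150-69285549 near Tcf4 with 3.15. In the cartilage list, Sox9 had 25 members, Sox6 23 and Bmpr1b, a BMP receptor gene of skeletal condensations, 14. Bmpr1b had 13 members among 15 distal Shh-/-;Gli3-/- peaks within 100 kb, beside 0 WT and 4 Shh-/- distal peaks. The share of members for the cartilage list was 69.2% (interval 55.7 to 80.1%, which holds 63.7%).

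**Figure D5:**
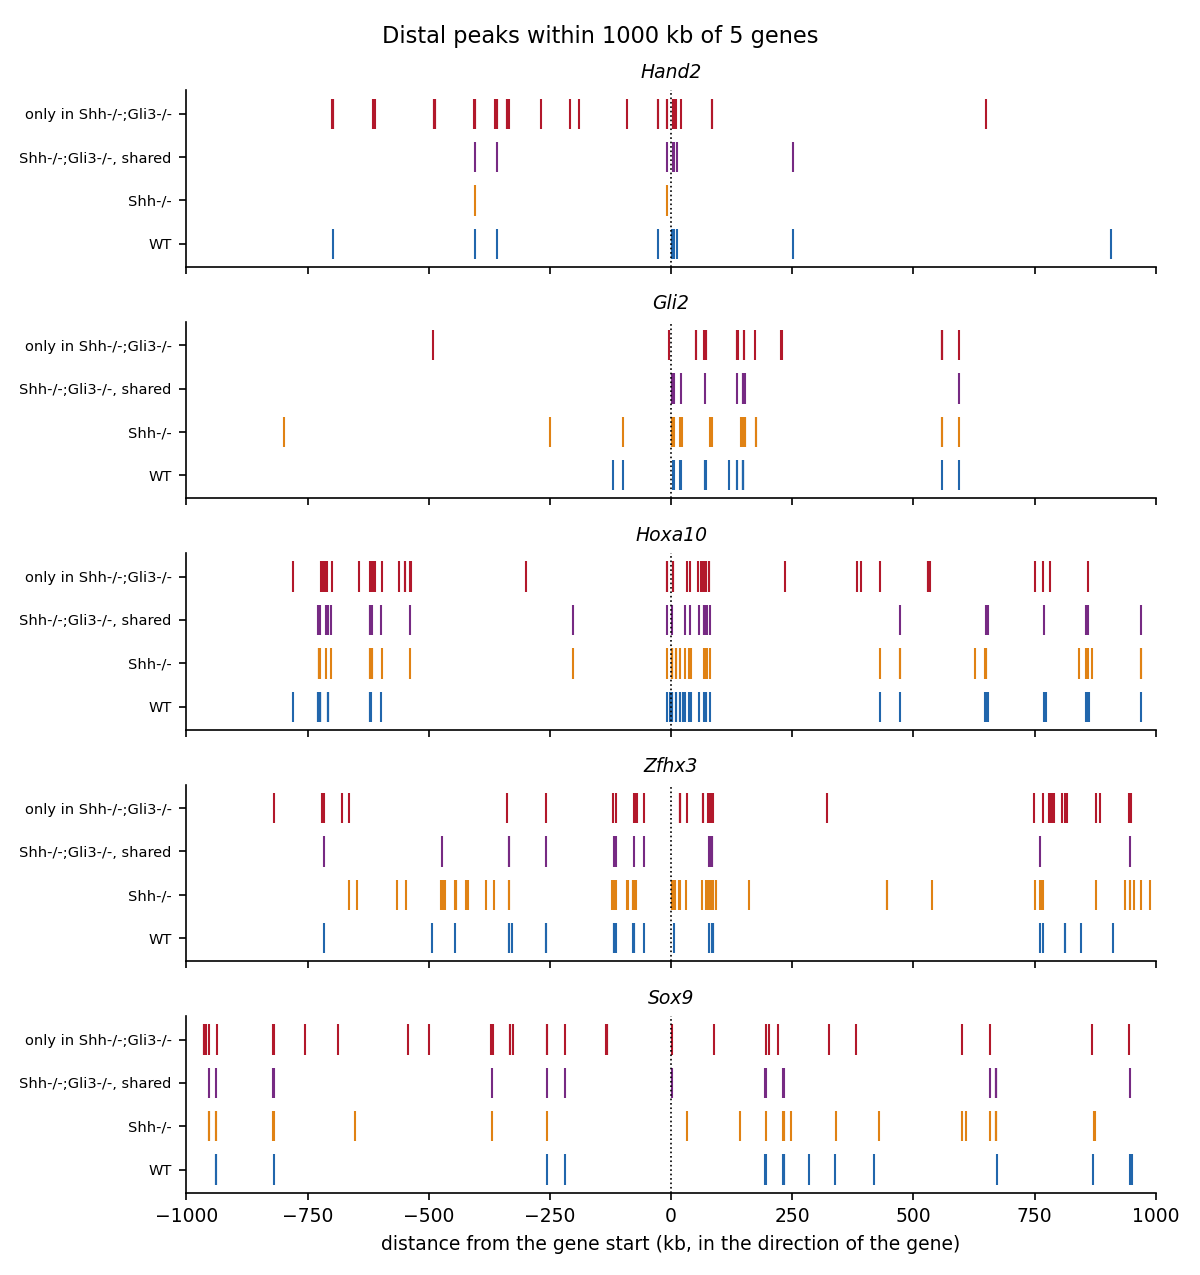
Positions of distal peaks within 1000 kb of the gene with most members in each of 5 limb lists, with 0 at the gene start and positive distances in the direction of the gene. Members, other Shh-/-;Gli3-/- peaks, Shh-/- peaks and WT peaks are in separate rows. Hand2 has 41 members beside 2 Shh-/- and 11 WT peaks, while Zfhx3 has 47 members beside 63 Shh-/- and 27 WT peaks.

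Genes of the other cell types of a limb bud also had members. Members were 39.4% of distal Shh-/-;Gli3-/- peaks near limb ectoderm genes (13 within 100 kb), 57.1% near muscle precursor genes (12), 54.0% near blood and endothelial genes (34) and 76.5% near neural genes (26), beside 63.7% of all. For the neural list the interval, which reached up to 87.6%, also held 63.7%. Near the housekeeping genes, 22 of 44 were members. As nearest gene, Bmp7 had 6 members, Grhl2 and Tfap2a 2 each, Eya1 7, Met 3, Ets1 19, Erg 7, Fli1 5, Pou4f1 9 and Isl1 6. The housekeeping genes Eef1a1, Actb and Ywhaz had 4, 3 and 1. None of these values says in which cells of the bud a peak was acetylated.

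In 300 bp around the peak middle, 342 members (2.67%, interval 2.40 to 2.96%) held the GLI motif, against 2.34% of the windows and 2.98% of windows weighted to the GC content of the members. The shares were 3.39% in the shared distal Shh-/-;Gli3-/- peaks, 3.31% in peaks only in Shh-/- and 4.43% in peaks only in WT. Relative to windows of the GC content of each class, these were 0.896 times for members, 0.904 times for the shared peaks, 0.896 times for peaks only in Shh-/- and 1.10 times for peaks only in WT. The core CCACCC, which the full motif contains, was found in 20.9% of members, 15.6% of all windows and 19.9% of windows of like GC content.

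TAATTA, the core recognized by many homeodomain proteins, occurred in 10.3% of members (interval 9.77 to 10.8%), against 10.7% of all windows and 8.17% of windows of like GC content. Shared distal Shh-/-;Gli3-/- peaks had 7.02% against 5.60% for windows of their own GC content, so that the excess was similar (1.26 and 1.25 times). In peaks only in Shh-/- and only in WT it was 0.938 and 0.976 times. AGGGGGC, part of the motif of the insulator protein CTCF, occurred in 3.96% of members and 2.28% of all windows. This was 1.25 times the share of windows of like GC content, and 1.33 times in the shared peaks. All motifs were searched on both strands, and a stretch could match several of them. The HOX13 word CCAATAAA occurred in 1.44% of members and 1.87% of all windows. The word TGATNNAT, bound by PBX together with HOX proteins, occurred in 13.96% of members and 17.7% of windows. For MEIS proteins the word TGACAG was found in 19.4% and 18.5%, and for HAND and TWIST proteins the word CAGATG in 22.7% and 22.0%. The SOX word AACAATG occurred in 5.24% of members and 6.02% of windows. GATA proteins bind AGATAA, which was found in 15.9% and 19.2%, and TEAD proteins bind GGAATG, found in 16.3% and 15.9%. Against windows of like GC content these 7 shares ranged from 0.913 times for HOX13 to 1.01 times for SOX.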

How the data were processed

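H3K27ac MicroChIP-seq and input libraries were aligned by the authors to mm10 with Bowtie2 2.2.5, per the submitters' processing notes, and peaks were called by the authors with CisGenome. Each deposited list gives peaks in steps of 50 bp, with the deposited log2 fold over the input of that genotype, FDR (a q-value), a score by which the list is ranked, and the −log10 of a Poisson p-value, which stops at 100. Replicate values and read depth are not in the lists (the study's methods give only a minimum depth), so precision beyond counting over peaks is unknown. Folds were compared only within the Shh-/-;Gli3-/- list. Groups came from sample titles, since the genotype field gives wild type for every sample. Whether positions count from 0 or 1 is not stated, and 1 was assumed.

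Overlaps, gaps, nearest protein-coding transcript starts (GENCODE M21 basic), GC content (500 bp) and motifs (300 bp) in GRCm38 were computed in Python 3.11.15 with numpy 2.4.6 and pandas 2.3.3, and the functions were tested on simulated data. The comparison with the genome used 231638 distal windows, one every 10 kb, and motif shares were weighted over GC bins of 5%. Shares have Wilson 95% intervals. Named members and genes were the 10 of highest fold, the 10 widest, the 10 genes nearest to most members, the 3 leading genes of each list, members at the 5 GLI3-bound regions of the study's qPCR, and the 5 chains with most members and their ties, while the other genes and windows named were chosen after their values were seen. Some items that this rule selects are not reported here. The members, gene lists and rules were chosen with earlier results of these data known. Other settings were tried for overlap, FDR, fold, width, list size, promoter distance, GC and motif definitions.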

Additional observations from a re-analysis of the deposited data

How the results depend on the processing

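No paired analysis was possible because the deposited lists, 1 a genotype, hold nothing per replicate, and hence no replicate could be left out. The depth of each library is not in the lists and the study's methods give only a minimum, so its part in the number of peaks was not tested. The main values were 12817 members, 37.56% within 1 kb of another list, 33.63% GC-poor, 7.529% nearest to a regulator, 2.668% with the GLI motif and 60.27% with another member within 10 kb. With a reciprocal overlap of 50%, 51.72% were near another list, 30.92% GC-poor and 68.81% clustered. Counting gaps of up to 1 kb as overlap left 8003 members, 36.0% GC-poor, 6.847% at regulators and 52.47% clustered. With an FDR below 0.05 in the Shh-/-;Gli3-/- list, 34.74% were GC-poor and 54.06% clustered, and with that limit in all lists 27.49% were near and 59.14% clustered. A log2 fold of at least 3 left 1123 members, 43.72% near, 41.05% GC-poor, 8.459% at regulators, 2.137% with the GLI motif and 21.82% clustered. A width of at least 500 bp left 778, with 42.93%, 46.66%, 8.869%, 2.314% and 25.32% in the same order. Lists of equal size gave 7453 members, 34.71% near, 35.27% GC-poor and 50.77% clustered. Without peaks that had a start within 5 kb, 35.54% were near. GC of the whole peak gave 32.38% GC-poor, and a limit of 40% gave 23.49%. Regulators with a start within 100 kb took 5.937%. The GLI motif in the whole peak took 2.036% and its core CCACCC 20.87%. Within 100 kb, 84.43% had another member. Leaving out chromosome 18, or members lying for 50% or more in repeats, was chosen after seeing the data and moved no value beyond its interval or the count beyond 1.5 times. The cause of these shifts was not tested.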
